A study of Homo sapiens with 6 samples.

Results

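The integrin and focal adhesion genes are described here as 41 of the 12306 gene rows of an RNA-seq table from 92.1 cells. A row was taken when its symbol began with ITGA or ITGB, or when it was on a list of 41 integrin and focal adhesion genes. Of the listed genes 37 had a row, and 4 further rows (ITGAE, ITGAM, ITGB6 and ITGB3BP) came in by their names. ITGA4, ITGB3, FERMT1 and TNS1 had no row among those used here, so nothing is said of their levels. The rows fall into 15 integrin subunits, 25 scaffolds and regulators, and ITGB3BP, a centromere protein that carries an integrin name but is no subunit. 92.1 is an established human cell line from uveal melanoma, a tumour of the melanocytes of the eye. Cells grown in serum-containing medium received DMSO, the vehicle, or 1 µM VS-4718, an inhibitor of focal adhesion kinase (FAK), and RNA was taken after 2 h. There were 3 libraries in each group. The design text calls the samples independent without naming separate cultures, so the p-values measure the spread between these libraries, which may be technical. Every cell is of the same line, which limits the results to that line and to a single dose and time.

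Integrins are pairs of an alpha and a beta subunit that span the cell membrane and bind matrix proteins outside and a protein assembly, the focal adhesion, inside. Talin and kindlin bind the beta tail and switch the receptor on, the complex of ILK, PINCH and parvin links it to actin, and paxillin and the LIM-domain proteins are recruited around them. FAK is bound at these sites and is switched on when integrins engage the matrix. Its signalling is known to promote adhesion turnover, in which the GIT and PIX proteins and the phosphatase PTP-PEST also act. VS-4718 acts on the FAK enzyme, whereas the values below are transcript levels of its neighbours in the adhesion.

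Values are given on a log2 scale of a TPM-like measure, an abundance scaled for transcript length and to a fixed library total. Back on the linear scale, a library summed to between 836527 and 840715 units. The read depth is unknown, and no counting interval can be given. All 41 rows carried current human symbols, but they were chosen by symbol, so this does not show which transcripts they count. Some rows of the table are named in mouse style. The names of 2675 rows, of whatever style, matched no single human gene. These rows held between 43.6% and 44.8% of a library's summed units. The sources used here do not state which transcripts were counted in a row, so a low value describes the row and may not describe the gene. Melanocyte lineage markers were present, with PMEL at 4792 and SOX10 at 291 TPM-like units. The melanosome genes TYR and MLANA had 0.138 and 0.347 units. The 10 lineage markers summed to between 7372 and 7955 units in vehicle and between 7162 and 7842 with VS-4718. Most of that sum was PMEL and TYRP1 (2317 units). DCT had 1.42 units, and 7 of the 10 markers were high enough to be tested. The 5 fibroblast markers with a row summed to at most 1.72 units, and the single immune marker with a row to at most 0.142. The 2 endothelial markers reached 8.60 units, nearly all of it PECAM1. The single epithelial marker reached 0.501.

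No integrin or focal adhesion row differed between VS-4718 and vehicle at an adjusted p under 0.05. Of the 41 rows 25 were high enough to be tested (5 subunits and 20 scaffolds), and 0 passed limma with Benjamini-Hochberg adjustment over all 9229 tested rows. Among all tested rows, 12 passed, or 0.13%, so the absence of a call among 25 rows is close to that background. The smallest adjusted p among the 25 was 0.485, for ILK. At an unadjusted limma p under 0.05, 1 member was higher (ILK) and 0 were lower, against 3.02% of all tested rows higher and 6.74% lower. Treated and vehicle values did not overlap in 2 higher tested members (ILK and RSU1), where the share of all tested rows was 5.15%. They did not overlap in 1 lower tested member (TRIP6), where the share was 11.2%.

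The 3 abundant integrin subunits had nearly the same level in both groups. ITGB1, the beta subunit shared by most matrix-binding integrins, had log2 values of 8.13, 8.05 and 8.0 in the vehicle libraries and 8.09, 8.05 and 8.22 with VS-4718. The groups overlapped, and the highest value was that of VS-4718 replicate 3. The log2 fold change was 0.06 (SE 0.06), with a 95% interval from -0.08 to 0.20. ITGAV pairs with several beta subunits to bind RGD-containing matrix such as vitronectin and fibronectin. Its values were 6.03, 6.06 and 6.19 in vehicle and 6.04, 5.98 and 6.13 with VS-4718. Both groups spanned almost the same range, and the log2 fold change was -0.04 (SE 0.07, interval -0.22 to 0.13). ITGB5, the vitronectin-binding partner of ITGAV, stood at 5.81, 5.68 and 5.65 in vehicle and at 5.56, 5.65 and 5.73 with VS-4718. Its log2 fold change was -0.07 (SE 0.08, interval -0.25 to 0.11).

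The other tested subunits lay far lower. ITGAE, an alpha subunit best known from lymphocytes within epithelia, had values of 2.68, 2.83 and 2.67 in vehicle and 2.67, 2.41 and 2.73 with VS-4718. VS-4718 replicate 2 was the lowest library and the groups overlapped (log2 fold change -0.13, SE 0.13). ITGA5, the alpha subunit of the classical fibronectin receptor, stood at 1.30, 0.45 and 1.28 in vehicle and at 1.49, 1.31 and 0.70 with VS-4718. One library in each group was low. The log2 fold change was 0.16 (SE 0.32), and it turned negative without vehicle replicate 2 (-0.13).

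**Figure D1:**
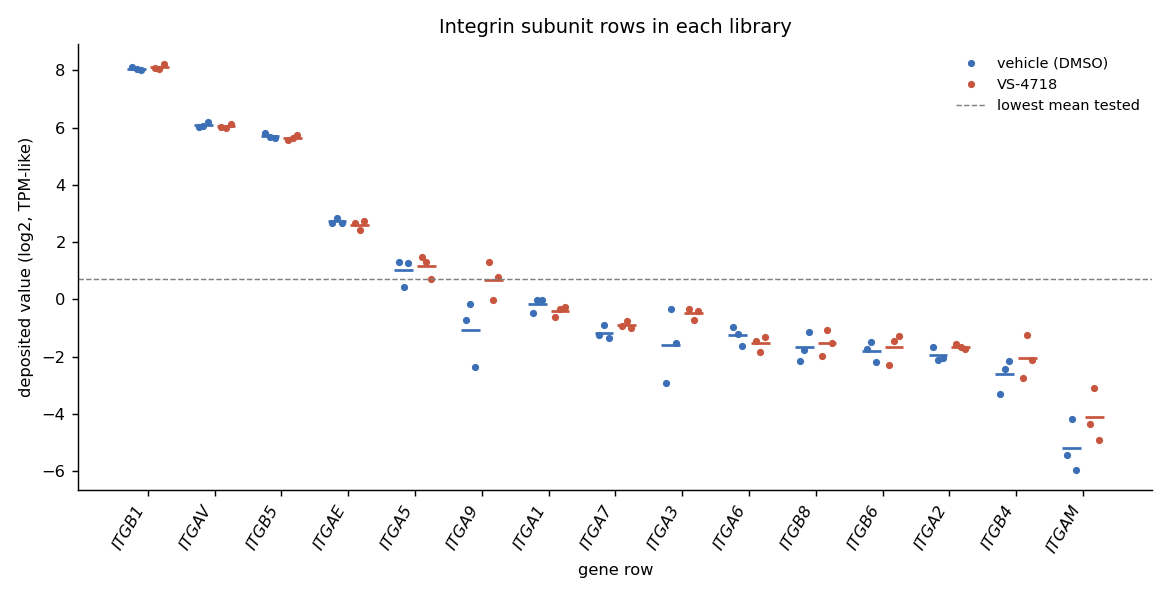
Log2 TPM-like values of the 15 integrin subunit rows, ordered by mean level. Each point is 1 library (vehicle or VS-4718, 3 each), short bars are group means and the dashed line is the lowest mean that was tested (0.70). ITGB1, ITGAV and ITGB5 stand apart from the other subunits, and the points of both groups lie together.

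In the order of levels ITGB1 came first, at 272 TPM-like units (geometric mean of 6 libraries), followed by ITGAV at 67.3 and ITGB5 at 51.2. ITGAE had 6.34 units and ITGA5 2.13. The library ranges of these 5 did not overlap from one to the next: on the log2 scale the means were 8.09 ± 0.07 (SD, n = 6), 6.07 ± 0.08, 5.68 ± 0.09, 2.67 ± 0.14 and 1.09 ± 0.41. From ITGA5 downwards neighbouring ranges overlapped, except between ITGA1 and ITGA7, so that most of the lower ranks cannot be told apart. Among the 10 alpha rows ITGAV held between 82.0% and 86.6% of the summed units of a library. Among the 5 beta rows ITGB1 held 83.4% ± 0.2 (SD, n = 3) in vehicle and 84.5% ± 0.7 with VS-4718, and ITGB5 most of the rest (16.4% ± 0.3 and 15.2% ± 0.6). The beta rows summed to 4.01 ± 0.37 times the alpha rows in vehicle and to 4.15 ± 0.14 times with VS-4718. Both sums lack any subunit with no row, ITGA4 and ITGB3 among them.

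The remaining 10 subunit rows were under 1 TPM-like unit on average (0.0396 to 0.872) and too low to be tested. They include the collagen receptors ITGA1 and ITGA2, the laminin receptors ITGA3, ITGA6 and ITGA7, the laminin-binding beta subunit ITGB4, and ITGB6 and ITGB8, which pair with ITGAV. ITGA9, a receptor for tenascin and osteopontin, was the 1 row among them whose groups did not overlap. Among tested rows 5.15% were higher without overlap, and no such share was worked out for rows too low to test. The log2 values of ITGA9 were -0.73, -0.17 and -2.36 in vehicle and 1.31, -0.03 and 0.78 with VS-4718. The treated values were higher, but vehicle replicate 2 and VS-4718 replicate 2 were separated by little, and the SD was 1.14 in vehicle. With no filter on low rows its difference of 1.77 had an adjusted p of 0.492. With a pseudocount of 1 the difference shrank to 0.79. ITGA6 stood at -0.95, -1.22 and -1.62 in vehicle and at -1.44, -1.85 and -1.31 with VS-4718, and the groups overlapped. ITGA3 had a lone vehicle value of -2.94 (replicate 1), whereas its other 5 values lay between -1.52 and -0.34. ITGAM, a subunit of myeloid cells, was the lowest subunit, at -5.19 ± 0.92 (SD, n = 3) in vehicle and -4.13 ± 0.94 with VS-4718.

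Of the 5 member rows grouped here as binders of integrin tails, the talin row TLN1 was the most abundant. Its values were close between the groups. TLN1, which encodes the talin that links beta tails to actin, had values of 5.67, 5.54 and 5.66 in vehicle and 5.65, 5.64 and 5.60 with VS-4718. The treated values lay within the vehicle range, and the log2 fold change was 0.01 (SE 0.06, interval -0.14 to 0.16). FERMT2, a kindlin that acts with talin on the beta tail, stood at 4.36, 4.17 and 5.05 in vehicle and at 4.77, 4.41 and 4.27 with VS-4718. Vehicle replicate 3 was the highest library, and the log2 fold change of -0.04 (SE 0.24) became 0.22 without it. TNS3, a tensin, went from 1.79, 1.76 and 1.62 to 1.40, 1.65 and 1.43. Its treated values were lower except for an overlap of 1 library (log2 fold change -0.23, SE 0.14, adjusted p = 0.649). TLN2, the second talin, and ITGB1BP1, which encodes ICAP1, an inhibitor that competes with talin and kindlin for the beta 1 tail, were too low to test. ITGB1BP1 had values from -1.96 to -1.82 in vehicle and of -1.91, 0.28 and -1.37 with VS-4718, so its higher treated mean rested mainly on VS-4718 replicate 2.

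In the complex of ILK, PINCH and parvin, ILK had the smallest p of all tested members. ILK, the pseudokinase at the centre of the complex, was also the most abundant scaffold row, at 86.2 TPM-like units. Its log2 values were 6.29, 6.32 and 6.43 in vehicle and 6.54, 6.44 and 6.56 with VS-4718. All treated values were above all vehicle values, by a narrow margin between vehicle replicate 3 and VS-4718 replicate 2. The log2 fold change was 0.17 (SE 0.06, interval 0.02 to 0.32), a geometric mean 12.4% above vehicle, and it did not pass over all rows (adjusted p = 0.485). RSU1 encodes RSU-1, which binds PINCH1. It stood at 4.95, 4.73 and 4.91 in vehicle and at 5.03, 5.04 and 4.98 with VS-4718. The treated values were again all higher, by a log2 fold change of 0.15 (SE 0.08, adjusted p = 0.599).

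The other members of that complex did not separate the groups. LIMS1, which encodes PINCH1, had 5.13, 5.32 and 5.40 in vehicle and 5.21, 4.98 and 5.66 with VS-4718 (log2 fold change 0.00, SE 0.17, interval -0.41 to 0.42). LIMS2, which encodes the related PINCH2, had 3.60, 1.44 and 4.16 in vehicle and -1.15, 4.53 and 3.29 with VS-4718. Its interval, from -4.32 to 2.65, is too wide to say anything of the treatment, and without VS-4718 replicate 1 the log2 fold change of -0.84 became 0.85. LIMS1 and LIMS2 are close paralogs, and how reads were shared between them is not known. PARVA, an actin-binding parvin, stood at 2.23, 1.31 and 2.42 in vehicle and at 1.83, 1.42 and 2.06 with VS-4718 (log2 fold change -0.21, SE 0.32). PARVB was too low to test.

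None of the tested adaptors and LIM-domain proteins passed over all rows, and their log2 fold changes ran from -0.09 (TRIP6) to 0.35 (TES). PXN encodes paxillin, the adaptor that recruits FAK and the GIT proteins. Its values were 4.44, 4.22 and 4.30 in vehicle and 4.29, 4.33 and 4.63 with VS-4718 (log2 fold change 0.09, SE 0.12, interval -0.18 to 0.37). TRIP6, of the zyxin family, had 5.17, 5.21 and 5.15 in vehicle and 5.14, 5.06 and 5.06 with VS-4718. Its treated values were all lower, but by only 0.09 log2 units (SE 0.06, adjusted p = 0.675). TES, which encodes the LIM-domain protein testin, went from 0.60, 0.80 and 0.53 to 0.97, 0.79 and 1.23, and 1 treated library lay inside the vehicle range (log2 fold change 0.35, SE 0.19, interval -0.10 to 0.81). LPP, also of the zyxin family, ranged from 0.50 to 1.74 in vehicle and from -0.04 to 1.68 with VS-4718, and its interval (-1.24 to 1.30) leaves room for large changes either way. SORBS3, which encodes the vinculin-binding vinexin, had a log2 fold change of -0.04 (SE 0.17).

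ZYX and NEDD9 were near 1 TPM-like unit and too low to test. ZYX, which encodes zyxin, a protein that marks adhesions under tension, had values of -0.08, 0.51 and -0.05 in vehicle and 0.54, 0.44 and -0.90 with VS-4718. NEDD9, a CAS-family scaffold that FAK phosphorylates, had 0.09, 0.11 and -0.11 in vehicle and 0.22, -0.54 and -0.05 with VS-4718. Both rows overlapped between the groups. The KANK proteins connect talin to the cortical microtubule complex around adhesions. KANK1 stood at 3.70 ± 0.17 (SD, n = 3) in vehicle and 3.75 ± 0.06 with VS-4718, and KANK2 at 0.85 ± 0.24 and 0.70 ± 0.16.

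None of the 5 tested regulators of adhesion turnover passed over all rows. PTPN12 encodes PTP-PEST, a phosphatase that acts on CAS proteins and paxillin. Its values were 4.51, 4.45 and 4.08 in vehicle and 3.96, 3.76 and 4.29 with VS-4718. VS-4718 replicate 3 lay inside the vehicle range, and the log2 fold change was -0.34 (SE 0.17, interval -0.75 to 0.06, adjusted p = 0.574). It was -0.22 without VS-4718 replicate 2 and ran from -0.48 to -0.22 with a library left out. ASAP1, an ARF GTPase-activating protein of adhesions, had 6.16, 6.0 and 6.05 in vehicle and 6.02, 6.08 and 6.02 with VS-4718 (log2 fold change -0.03, SE 0.06). GIT1, a scaffold that brings PIX to paxillin, stood at 4.55 ± 0.12 (SD, n = 3) and 4.62 ± 0.07, with overlapping groups. Its paralog GIT2 had 5.78, 6.16 and 5.80 in vehicle and 5.91, 5.64 and 6.08 with VS-4718, again overlapping (log2 fold change -0.04, SE 0.14). ARHGEF7, which encodes beta-PIX, an exchange factor for RAC and CDC42, had 6.29, 5.47 and 5.47 in vehicle and 5.57, 5.59 and 5.62 with VS-4718. Vehicle replicate 1 stood above all others, and without it the log2 fold change of -0.15 (SE 0.22) became 0.12.

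**Figure D2:**
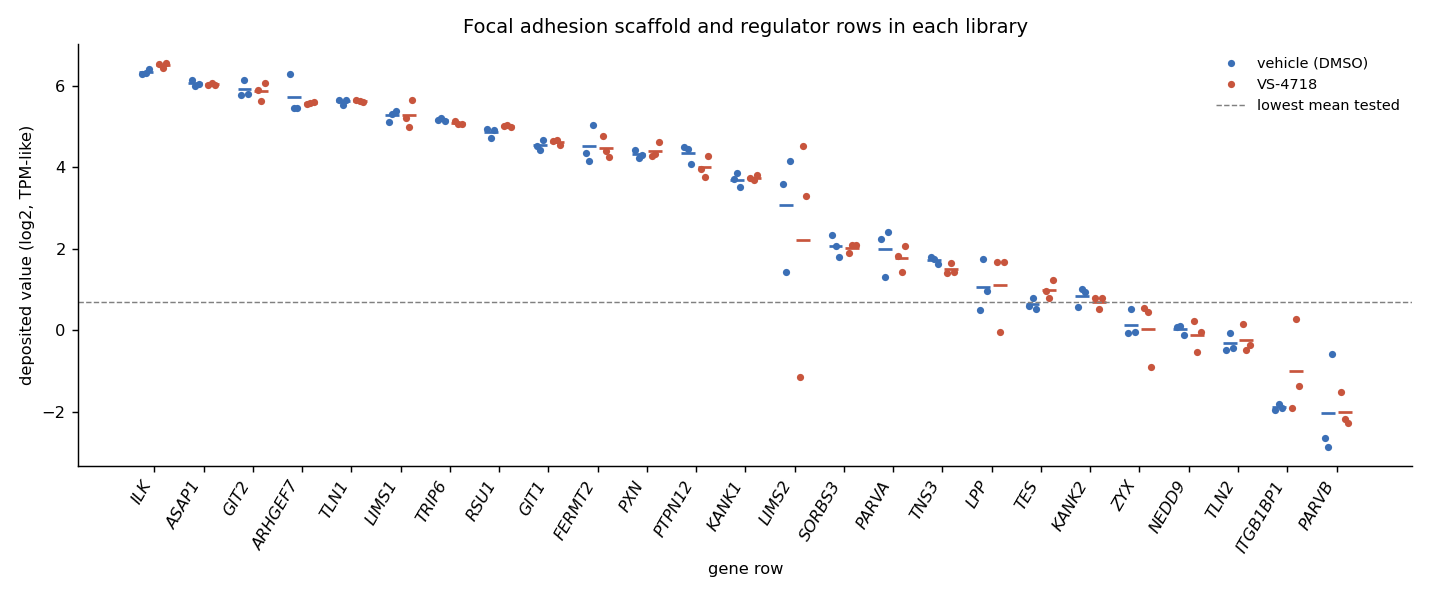
Log2 TPM-like values of the 25 scaffold and regulator rows, ordered by mean level, with 1 point per library, short bars for group means and a dashed line at the lowest mean tested. ILK is the highest row and its 3 treated points lie above its vehicle points, while LIMS2 scatters from -1.15 to 4.53.

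The tested subunits and scaffolds had medians close to that of the table as a whole. Of the 5 tested subunits 3 had lower and 2 higher means with VS-4718, with a median log2 fold change of -0.04. Of the 10 untested low subunits 8 had higher means, and with no filter the median of all 15 was 0.15. No matching share or median was worked out over all rows too low to test. Of the 20 tested scaffolds and regulators 11 had lower and 9 higher means, with a median of -0.03. Over all tested rows the median was -0.03 and 58.2% had lower means. The intervals say how large a change these libraries leave room for. For 3 subunits (ITGAV, ITGB1 and ITGB5) and 3 scaffolds (ASAP1, TLN1 and TRIP6) the whole 95% interval lay within a 1.2-fold change in either direction, or 24.0% of the 25 members against 20.7% of all tested rows. For 16 members it lay within 1.5-fold (64.0% against 70.3%) and for 23 within 2-fold (92.0% against 91.6%). LIMS2 and LPP were the exceptions to the last. These intervals are for single rows and are not adjusted for their number.

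**Figure D3:**
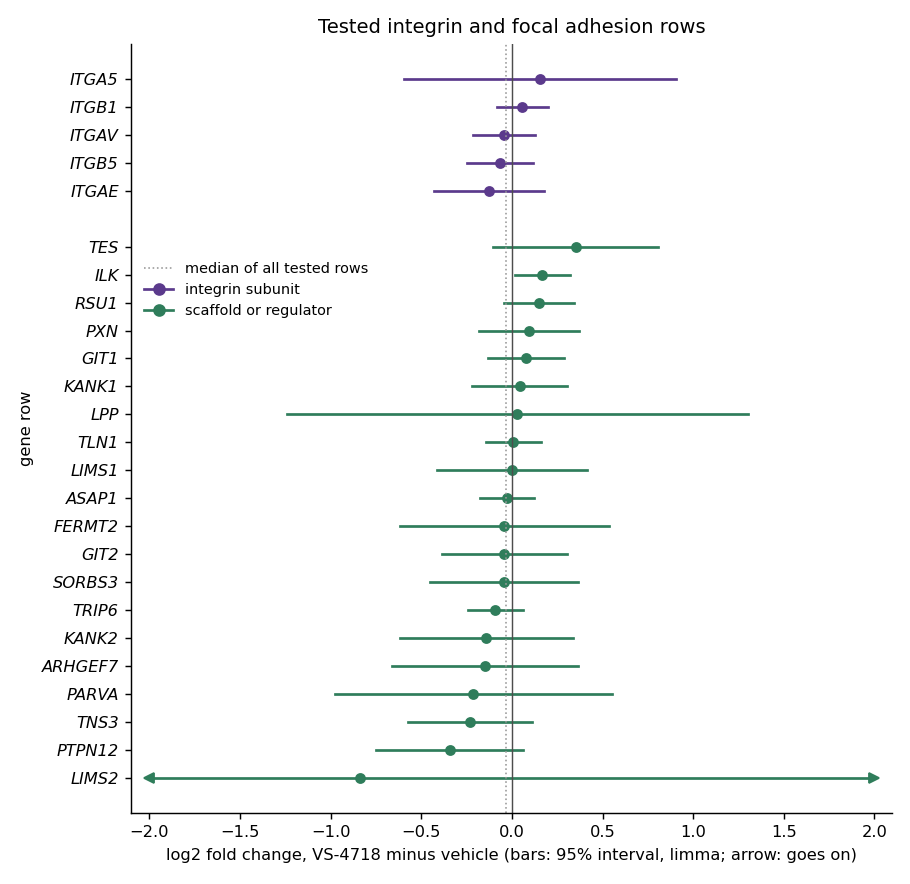
Log2 fold change (VS-4718 minus vehicle) of the 25 tested rows with 95% intervals from limma, subunits above scaffolds, and the median of all tested rows as a dotted line. Every interval but that of ILK crosses 0, and arrows mark the LIMS2 interval where it runs off the axis.

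How precisely a member could be compared differed widely between rows, most of which also differed in level. The SD within groups was 0.04 log2 units for TRIP6, lower than in all but 3.80% of tested rows, and 0.05 for TLN1. ITGB1, ITGAV and ITGB5 had 0.08, 0.08 and 0.09. LIMS2 had 2.34, above 99.9% of tested rows, LPP 0.83 (98.5%), PARVA 0.48 (93.8%), ITGA5 0.45 (92.8%) and FERMT2 0.37 (89.1%). ARHGEF7, at nearly the same mean level as TLN1 and ITGB5, had 0.33.

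**Figure D4:**
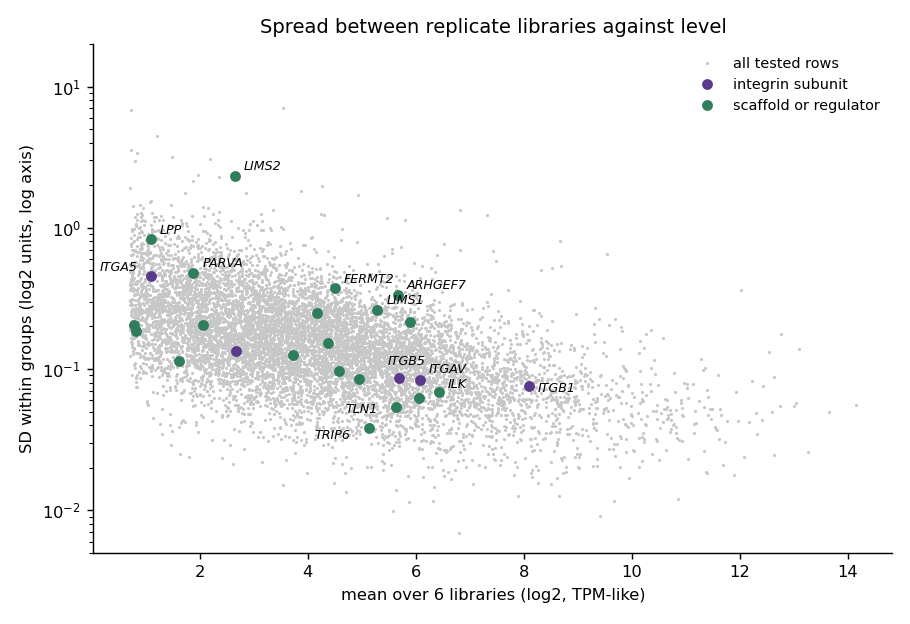
SD within groups (log axis) against the mean log2 value over 6 libraries, for all 9229 tested rows (grey) and the tested integrin and scaffold rows. The 3 abundant subunits lie at SDs of 0.08 to 0.09, while LIMS2 lies near the top of the cloud at 2.34.

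Other genes of the adhesion machinery were examined as 6 lists, and none of their tested rows passed over all rows. At an unadjusted limma p under 0.05 the lists held 0 to 2 higher and 0 to 2 lower rows each, to be read against the 3.02% of all tested rows that were higher and the 6.74% that were lower. Integrin ligands, the matrix proteins that the receptors bind, had 22 of 35 genes with a row and 10 tested, with 0 rows at an unadjusted p under 0.05 and a median log2 fold change of 0.01. COL6A2, a collagen VI chain, went from 2.08 ± 0.09 to 2.30 ± 0.08 (SD, n = 3; adjusted p = 0.607). The 17 tested actin linkers had a median of -0.08, with 1 row lower at an unadjusted p under 0.05: MYH10, the heavy chain of non-muscle myosin IIB, from 6.97 ± 0.18 to 6.68 ± 0.18 (adjusted p = 0.503). LIMA1, an actin-bundling LIM protein, went from 6.14 ± 0.11 to 5.98 ± 0.03.

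FAK, SRC and CAS family genes and their adaptors had 14 tested rows and a median of -0.05. At an unadjusted limma p under 0.05, 2 were higher and 1 lower (all tested rows: 3.02% higher and 6.74% lower, also for the lists that follow). CRK, an adaptor that binds phosphorylated paxillin and CAS proteins, had a log2 fold change of 0.25 (SE 0.07, adjusted p = 0.369). PIK3CA, a catalytic subunit of PI3K, had 0.35 (SE 0.12, adjusted p = 0.453), and LYN, a SRC family kinase, -0.32 (SE 0.12, adjusted p = 0.470). The list of small GTPases of adhesion and their regulators had 22 tested rows with a median of -0.02 and 2 lower ones at an unadjusted p under 0.05, RND3 (-0.26, SE 0.10) and ARHGEF2 (-0.22, SE 0.09). The list of integrin traffic, inhibitors and membrane partners had 26 tested rows and a median of -0.01. CD9, a tetraspanin that associates with integrins in the membrane, had the smallest adjusted p of all 6 lists, 0.271, and went from 3.28 ± 0.12 to 3.77 ± 0.14 (log2 fold change 0.49, SE 0.11). NUMB (-0.33, SE 0.12) and EHD1 (-0.24, SE 0.09), which act in endocytosis and recycling of integrins, were lower at an unadjusted p under 0.05. The cortical complex that joins KANK proteins to microtubules had 8 tested rows, 6 of them with lower means where 58.2% of all tested rows had lower means, and a median of -0.13. That median ran from -0.19 to -0.08 with a library left out and was -0.02 with the stricter filter. Its member with the smallest p was PHLDB1 (-0.29, SE 0.14, adjusted p = 0.572).

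**Figure D5:**
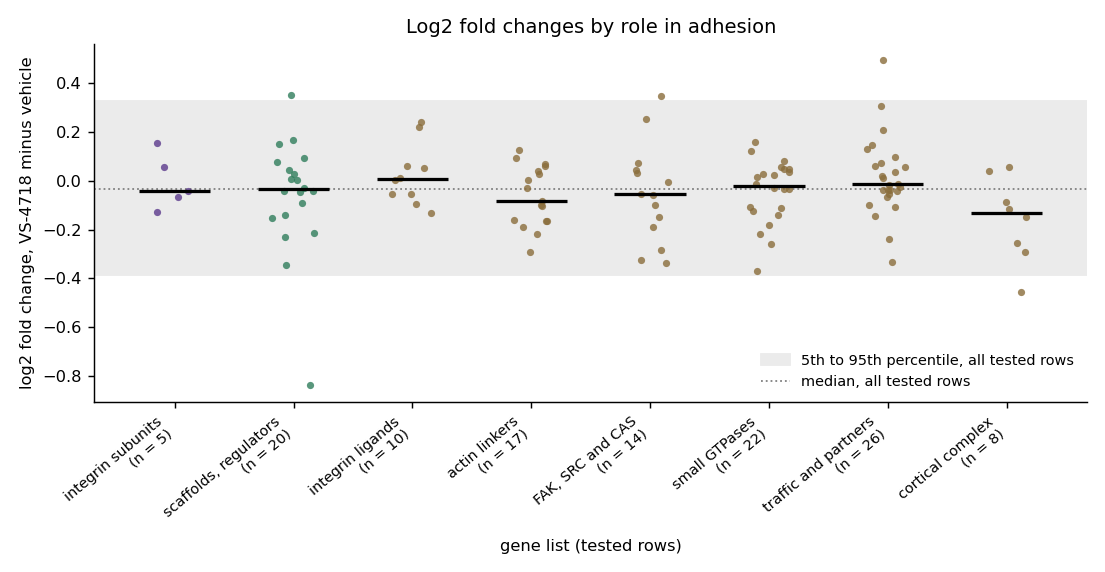
Log2 fold changes of the tested rows by role in adhesion: each point is a gene row, black bars are list medians, the band spans the 5th to the 95th percentile of all tested rows (-0.39 to 0.33) and the dotted line is their median. The medians of the 8 lists lie between -0.13 and 0.01.

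The human genes matched to the rows described are protein coding. Values are given per gene symbol, and the table names no exon or transcript. In GENCODE 29 (GRCh38) ITGB1 lies on chromosome 10 from 32900319 to 33005792, and RSU1 on the same chromosome from 16590611 to 16817528. ITGAV is on chromosome 2 from 186590065 to 186680901 and ITGB5 on chromosome 3 from 124761948 to 124901418. ILK spans 6603708 to 6610874 on chromosome 11, TLN1 35696948 to 35732395 on chromosome 9, and PTPN12 77537275 to 77640071 on chromosome 7.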

How the data were processed

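RNA of 92.1 cells was sequenced in 3 libraries per group, after 2 h of DMSO or of VS-4718 at 1 µM, per the labels' protocols. The authors deposited a log2 value for each gene symbol and library. The submitters' processing notes name kallisto, without a version, and GRCh38. No index, annotation, strandedness or filter is named there or in the labels. A TPM-like measure on the log2 scale was inferred from the linear sums.

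Rows whose mean was above the lowest 25% were tested (9229 of 12306, mean over 0.70) with limma 3.58.1 in R 4.3.3. The model held group as its only term, with variances following the mean. It was also run on simulated data with known changes, as a check of the code. Those changes were larger than the changes of nearly all tested members, so the run does not measure how well small changes are found. Tests were two-sided, with Benjamini-Hochberg adjustment over all tested rows and a threshold of 0.05. Fold changes are VS-4718 minus vehicle on the deposited log2 scale, with limma's moderated SE and 95% interval. With 3 against 3 an exact permutation of a single value cannot go below p = 0.1. The replicate numbers were not taken to pair the libraries. Residual correlations were 0.13, 0.05 and 0.03 for same-numbered libraries and ran from -0.09 to 0.05 for differently numbered ones. These values do not settle whether libraries were paired, so a fit with the replicate number as a block is also given.

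Members, lists and tests were chosen with earlier results of these data known. Values in every library are given for tested members with an unadjusted p under 0.05 or groups that did not overlap, for 14 core members where a row existed, and for the 5 highest subunit and 5 highest scaffold rows. TES, TNS3, PARVA, LIMS1, LIMS2, ITGA9, ITGA3 and ITGB1BP1 are described beyond that rule, chosen with their values known. Of each other list the members with the smallest p are named, at most 3. GENCODE 29 served for gene locations only. The other settings tried were the replicate number as a block, leaving out each library, median scaling, no filter, a stricter filter, a pseudocount of 1 and limma without trend. Exact tests used scipy 1.17.1 and figures matplotlib 3.10.9.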

Additional observations from a re-analysis of the deposited data

How the results depend on the processing

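No member passed at an adjusted p under 0.05 in the 12 alternatives, where the smallest adjusted p of the 25 tested members was 0.405 (PTPN12, without VS-4718 replicate 3). At an unadjusted limma p under 0.05 there were 0 to 2 members, 1 of them with the replicate block. Over the whole table the 12 calls became 0 with the replicate block and 0 in limma without trend (793 and 910 rows had an unadjusted p under 0.05) and 0 to 7 with a library left out. The cause was not tested. The median log2 fold change of the subunits ran from -0.086 to 0.0067 with a library left out and was 0.15 with no filter, where the 10 low subunit rows enter. Of 291 member values under the alternatives 267 kept direction and side of the threshold, and 24 of 14 members, none of which was called, changed sign. ASAP1 had 0.0062 with median scaling. With a library left out the signs changed for ITGA5 (-0.13 to 0.39), ITGAV (-0.086 to 0.0067), TLN1 (-0.033 to 0.030), FERMT2 (-0.22 to 0.22), PARVA (-0.55 to 0.0032), LIMS1 (-0.19 to 0.15), LIMS2 (-1.99 to 0.85), PXN (-0.013 to 0.16), LPP (-0.26 to 0.60), SORBS3 (-0.18 to 0.090), KANK1 (-0.046 to 0.12), GIT2 (-0.14 to 0.081), ARHGEF7 (-0.29 to 0.12) and ASAP1 (-0.063 to 0.017). ILK stayed between 0.14 and 0.21 and RSU1 between 0.08 and 0.19. With unknown depth, rows near or under 1 TPM-like unit are the least certain.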

Other observations

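The balance of the abundant subunits was compared within each library, where a common scaling factor cancels. The 3 ratios among ITGB1, ITGAV and ITGB5 were chosen after their values were seen. ITGB1 exceeded ITGB5 by 2.32, 2.37 and 2.36 log2 units in the vehicle libraries and by 2.53, 2.40 and 2.48 with VS-4718. The treated values were all higher, by 0.12 on average, and the difference lay between 0.09 and 0.16 with a library left out. In an exact two-sided permutation test the p was 0.1, the smallest that 3 against 3 can give, and 0.3 adjusted over the 3 ratios. ITGB1 exceeded ITGAV by 1.97 ± 0.15 (SD, n = 3) log2 units in vehicle and by 2.07 ± 0.02 with VS-4718 (exact permutation p = 0.4). ITGAV exceeded ITGB5 by 0.38 ± 0.16 and 0.40 ± 0.08 (exact permutation p = 0.9).

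The tested rows whose pattern over the 6 libraries was most like that of 3 members are given as a description, since many rows reach a high correlation over so few libraries. PTPN12 was followed most closely by PPME1, BRMS1L and RAB8A (Pearson r of 0.997, 0.995 and 0.994), with 53 rows over 0.95. RSU1 was followed by PSAP (0.991), ARHGEF25 and BBC3 (0.982 each), with 21 rows over 0.95. ILK was followed by the mouse-style row GM13542 (0.990), HELQ (0.987) and TMEM42 (0.977), with 18 rows over 0.95.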
